A study of Mus musculus with 16 samples.

Results

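Ear skin that lacked miR-146a was compared with wild-type ear skin after imiquimod. The 8 arrays are those titled as miR-146a-/- and as wild-type ears with imiquimod, 4 per genotype, out of 16 arrays in the series. Both genotypes had received the same agent: Aldara cream, which holds 5% imiquimod (IMQ), put on the right ear on 3 days at 31.25 mg a day. Ears were collected on day 4. The mice were 8 to 11 weeks old. Wild-type animals were C57BL/6J, and the knockout is labelled as a miR-146a deletion on the B6 background. The labels name no promoter or Cre line and no tissue restriction for the deletion. Nothing in them ties each sample to a mouse of its own. The p-values therefore rest on sample-to-sample spread that may be technical. The other 8 arrays, 4 per genotype, came from ears given a vehicle control, and give here the same genotype difference without IMQ.

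IMQ is an agonist of Toll-like receptor 7 that induces psoriasis-like inflammation in mouse skin, with a thickened epidermis, neutrophils and signalling through IL-23 and IL-17. miR-146a is a microRNA that NF-kB switches on and that represses Irak1 and Traf6, adaptors below Toll-like and IL-1 receptors, so that it works as a feedback brake on the pathway. In skin it has been described in keratinocytes and immune cells. The comparison asks which transcripts differ when that brake is missing during the IMQ response.

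The deleted microRNA and its paralog miR-146b are shown because a microRNA selects its targets mainly through its seed, bases 2 to 8, which is in capitals. The sequences are those of RefSeq on GRCm38.p6, where mmu-miR-146a-5p lies on the minus strand at chr11:43374435-43374456 and mmu-miR-146b-5p on the plus strand at chr19:46342790-46342811.
mmu-miR-146a-5p: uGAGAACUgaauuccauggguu
mmu-miR-146b-5p: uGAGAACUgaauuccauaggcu
Both carry the seed GAGAACU, and of 1679 mature mouse microRNAs in that table only these 2 do. Counted from the 5′ end of miR-146a-5p, the paralog differs at 2 of 22 positions, G18A and U21C, both outside the seed. The label names a deletion of miR-146a alone.

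Expression was measured on Affymetrix Mouse Gene ST 2.1 arrays and deposited as log2 values. They covered 30943 genes with a symbol, and the array medians lay between 3.21 and 3.28. No detection call was used here, so a group mean below the median of the array medians, 3.25, is called dim here, and a fold change against a dim group is given as a lower bound. Across these genes, arrays of one genotype correlated with IMQ at a mean r of 0.985 (wild type) and 0.982 (knockout). Arrays of different genotypes correlated at 0.982. The basal keratinocyte list averaged 8.95 to 9.11 on the knockout IMQ arrays and 9.05 to 9.12 on the wild-type ones, far above the array medians. Krt5, the keratin of basal epidermis, read 11.18 to 11.36 in wild-type and 11.35 to 11.54 in knockout IMQ ears.

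The probe set of the miR-146a gene, Mir146, read 2.07, 2.03, 2.0 and 1.78 in wild-type IMQ ears and 1.89, 1.93, 1.73 and 1.83 in knockout IMQ ears. The groups overlapped, and the level lay at the 0.575th percentile of all genes, near the floor of the array. This probe set therefore does not check the genotype labels. Mir146b differed by 0.08 ± 0.14 on the log2 scale (SE, limma adjusted p = 0.926), also below the array medians. Of the 50 neighbours on each side of Mir146 in the RefSeq gene order 49 were measured. With IMQ 0 of them were called and the largest difference had a size of 0.515 on the log2 scale, and with vehicle 1 was called.

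With IMQ 37 genes differed between the genotypes (limma, Benjamini-Hochberg adjusted p under 0.05), which is 0.12% of the genes tested. Of these 31 were lower in the knockout (0.1% of genes) and 6 were higher (0.0194%). At least 2-fold differences numbered 13. At an unadjusted p under 0.05 there were 2551 genes, 1132 higher and 1419 lower. The 4 arrays of one genotype all lay above the 4 of the other for 1554 genes (5.02%), and for all 37 called genes. With 0.12% of all genes called, 0 calls in a gene list below is near the share over all genes. Among the falls were Cd59a, an inhibitor of complement lysis, Flg2 and Alox12e, which act in the outer epidermis, and Myoc, Omd and Angptl7, which encode secreted proteins. The rises were Lyrm7, Pla2g4d, Defb14, Rnf224, Crabp2 and E030046B03Rik, a transcript dim in all 4 groups.

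The size of this set leaned on single arrays. Without wild-type IMQ array 1, 2 or 4 the count was 24, 7 or 16, and without knockout IMQ array 2, 3 or 4 it was 17, 80 or 13. A total of 7 genes kept their call under all 27 alternatives, namely Cd59a, Myoc, Alox12e, Entpd4, Lyrm7, Gm10002 and LOC102642528. The other 30 lost it when at least 1 of the 8 IMQ arrays was left out, with adjusted p up to 0.224, and all 37 kept their direction in each alternative that tested them.

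**Figure D1:**
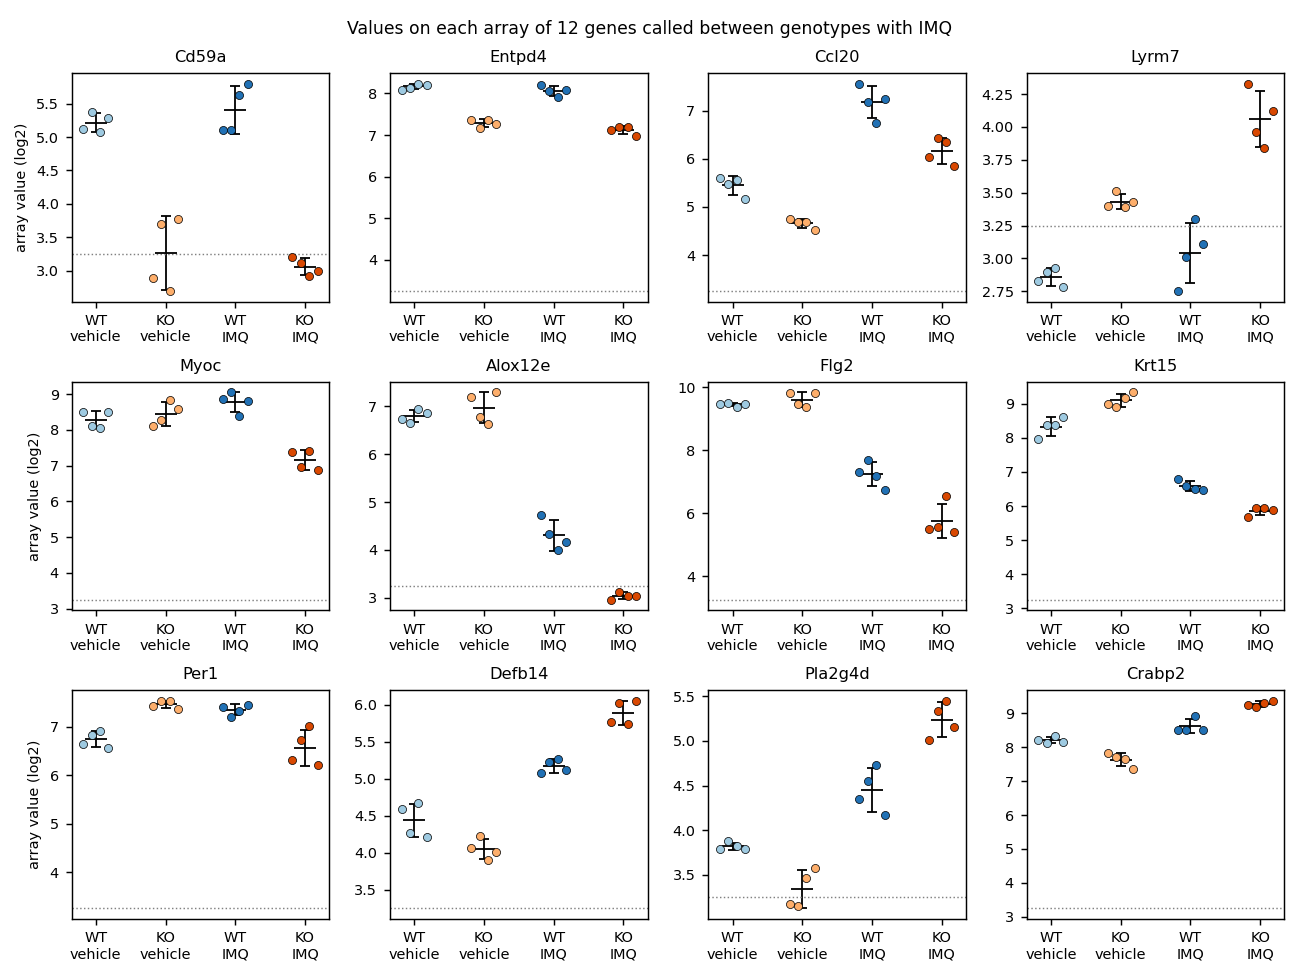
Value on every array (points, log2) of 12 genes called between genotypes with IMQ, in wild-type (WT) and knockout (KO) ears with vehicle or IMQ, with mean and SD (n = 4). The dotted line marks 3.25, the median of the array medians, and axes do not start at 0; the KO IMQ points never overlap the WT IMQ points.

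Cd59a had the largest difference of the called genes. It encodes a membrane protein that blocks assembly of the complement attack pore on the cell's own surface. It read 5.10, 5.11, 5.63 and 5.80 in wild-type IMQ ears and 3.20, 3.12, 2.92 and 3.0 in knockout IMQ ears. All 4 knockout arrays were below all 4 wild-type arrays and below the array medians, so that the fall was at least 5.1-fold (log2 difference -2.35 ± 0.21, SE, n = 4 and 4, limma adjusted p = 5.24e-05). With vehicle the difference was -1.96 ± 0.21 (adjusted p = 5.17e-04), and the difference between both was -0.39 (adjusted p = 0.659). IMQ itself moved Cd59a by 0.19 in wild-type and -0.20 in knockout ears (adjusted p = 0.774 and 0.644), effects that share arrays with the genotype comparison. The paralog Cd59b, chosen after its values were seen, was dim in both IMQ groups, with means of 2.46 and 2.32.

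Among 22 measured complement components and regulators Cd59a was the one called, while 19 lay below 0 and 3 above it, with a median of -0.25 against 0.01 over all genes. C4b, a component of the classical and lectin pathways, differed by -0.50 ± 0.19 and the adipocyte protease Cfd by -0.94 ± 0.30 (adjusted p = 0.449 and 0.357). Cd46, another membrane regulator of complement, differed by -0.58 ± 0.16 (adjusted p = 0.232). Its arrays overlapped between the genotypes, and its knockout IMQ mean was dim.

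Entpd4, a nucleotide-hydrolysing enzyme of the Golgi and lysosomal membranes, was also lower in both treatments, with little spread. With IMQ it read 8.19, 8.06, 7.91 and 8.08 in wild type and 7.12, 7.19, 7.20 and 6.98 in the knockout. The groups were separated by more than their own range, a 1.92-fold fall (-0.94 ± 0.10, adjusted p = 2.74e-04). Its other transcript cluster gave -0.91. With vehicle the difference was -0.88 (adjusted p = 5.17e-04).

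The predicted genes Gm10002, Gm20236 and Gm21464 were lower in both treatments. Gm10002 read 3.59 to 4.24 in wild-type and 2.43 to 2.91 in knockout IMQ ears, and its knockout mean was dim (at least 2.35-fold lower, adjusted p = 0.00329). Gm20236 and Gm21464 were 2.16-fold and 1.93-fold lower (adjusted p = 0.0148 and 0.0209). With vehicle these 3 differed by -1.13, -1.04 and -0.98 (adjusted p = 0.00501, 0.0130 and 0.00989). Gm10002 and Gm20236 each have 2 clusters with identical values, and the 3 clusters of Gm21464 ranged from -2.16 to -0.95, so these transcripts may share probes and cannot be counted as independent.

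Ccl20, the chemokine that draws Ccr6-bearing Th17 and gamma delta T cells, was lower in the knockout although IMQ raised it in both genotypes. It read 7.56, 7.17, 6.74 and 7.25 in wild-type and 6.03, 6.44, 6.34 and 5.84 in knockout IMQ ears. No knockout array reached the lowest wild-type array, and the fall was 2.02-fold (-1.02 ± 0.16, adjusted p = 0.0148). With vehicle the difference was -0.79 (adjusted p = 0.0354). The rise with IMQ was 1.73 in wild-type and 1.5 in knockout ears, and the test of the difference gave -0.23 (adjusted p = 0.760).

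Lyrm7, an assembly factor of mitochondrial respiratory complex III, had the largest rise among the called genes. It read 2.75, 3.01, 3.30 and 3.11 in wild-type IMQ ears, where it was dim, and 4.33, 3.96, 3.84 and 4.12 in knockout IMQ ears. All knockout arrays stood above all wild-type arrays, a rise of at least 2.03-fold (1.02 ± 0.12, adjusted p = 0.00121). With vehicle the difference was 0.57 (adjusted p = 0.0481). On the chromosome of Mir146, 6 of 1950 measured genes were called with IMQ, against 37 of 30943 (0.12%) over all genes. The nearest were Lyrm7 and Gpx3, at 286 and 290 places from Mir146 in the gene order, beyond the 50 neighbours given above.

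In all, 10 genes were called in both treatments. The direction was shared by 7, which are 18.9% of the IMQ calls and 4.96% of the vehicle calls, and opposite for Per1, Krt15 and Crabp2. The genotype comparisons with IMQ and with vehicle share no array.

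Flg2 and Alox12e were the 2 genes called of the 37 measured in the list of barrier proteins, lipoxygenases and differentiation keratins, and both were lower. Flg2, a relative of filaggrin in the cornified layer, read 7.32, 7.68, 7.18 and 6.75 in wild-type and 5.51, 5.56, 6.56 and 5.39 in knockout IMQ ears. Knockout array 3 came close to the lowest wild-type array and the other 3 were far lower, a 2.78-fold difference (-1.48 ± 0.22, adjusted p = 0.00818). With vehicle Flg2 differed by 0.16 (adjusted p = 0.847) and the difference between treatments was -1.64 (adjusted p = 0.0161). IMQ lowered Flg2 by -2.22 in wild-type and -3.85 in knockout ears.

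Alox12e, an epidermal 12-lipoxygenase, read 4.74, 4.34, 3.99 and 4.16 in wild-type and 2.96, 3.13, 3.04 and 3.04 in knockout IMQ ears. The knockout arrays were all dim and close together, so the fall was at least 2.4-fold (-1.26 ± 0.16, adjusted p = 0.00173). Vehicle ears of the genotypes differed by 0.17 (adjusted p = 0.736), and IMQ lowered the gene by -2.49 in wild-type and -3.93 in knockout ears. LOC102642528 is annotated as a relative of Skint5, one of the keratinocyte proteins that support epidermal gamma delta T cells. Its values were 8.05, 8.36, 8.45 and 8.28 in wild type against 7.29, 7.34, 7.45 and 7.61 in the knockout (1.82-fold lower, adjusted p = 0.00329). The 11 named Skint genes, looked up after the values were seen, had 0 calls, with Skint1 at -0.63 and Skint9 at -0.84 (adjusted p = 0.0984 and 0.111).

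Dapl1, known from differentiating epithelia, was 1.89-fold lower (adjusted p = 0.0209). Krt15, a keratin of basal cells and the hair follicle bulge, read 6.46 to 6.79 in wild-type and 5.69 to 5.95 in knockout IMQ ears (-0.72 ± 0.14, adjusted p = 0.0470). In vehicle ears Krt15 was higher in the knockout, by 0.77 (adjusted p = 0.0179). IMQ lowered it by -1.75 in wild-type and -3.23 in knockout ears.

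The list that holds Flg2 and Alox12e did not lie below 0 as a whole: 26 of its 37 genes lay above 0 and 11 below, with a median of 0.18. The keratin Krt24 differed by -1.92 ± 0.43 with a wide spread (5.19 to 7.27 against 3.20 to 5.74, adjusted p = 0.111) and the metallothionein Mt4 by -1.03 ± 0.23 (adjusted p = 0.0984). Among 20 late cornified envelope genes 0 were called. The largest difference was that of Lce1m, at -1.13 ± 0.22 with arrays that did not overlap (adjusted p = 0.0580).

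The promoter window of Flg2 is shown as that of a called barrier gene with a match to a motif searched. The window of Alox12e held no match to any of the 4 motifs. The Flg2 window spans chr3:93197023-93197322 on the plus strand of GRCm38.p6 in RefSeq. The capitals mark TGAATCA, a match to TGANTCA, the pattern searched here for AP-1, in which N is any base. The central base of this match is A. The search did not restrict that base, so the match is not shown to be an AP-1 site. The match begins at position -69 from the gene start.
Flg2 promoter: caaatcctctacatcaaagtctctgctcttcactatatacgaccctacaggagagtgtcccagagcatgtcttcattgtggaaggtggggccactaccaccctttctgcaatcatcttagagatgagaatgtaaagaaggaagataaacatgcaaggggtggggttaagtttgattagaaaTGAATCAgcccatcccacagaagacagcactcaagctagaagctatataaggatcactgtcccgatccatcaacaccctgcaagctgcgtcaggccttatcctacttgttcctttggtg
Promoter windows of 300 bases were found for 22 of the 37 called genes, 25 windows in all. Counted on both strands, TGANTCA with any central base occurred in 4% of them and in 7.81% of all 32851 windows in the table. The kB motif of NF-kB was in 0% and 0.411%, the core of the glucocorticoid response element, ACANNNTGT, in 12% and 6.85%, and the E-box CACGTG in 12% and 7.15%. Each 12% stands for 3 of 25 windows. A match describes letters, not binding.

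Defb14, Pla2g4d and Crabp2 were 3 of the 6 rises. Defb14, a beta-defensin of keratinocytes that kills bacteria and attracts Ccr6-bearing cells, read 5.08, 5.23, 5.27 and 5.12 in wild-type and 5.77, 6.02, 5.74 and 6.05 in knockout IMQ ears. The groups were separate and tight (1.65-fold, 0.72 ± 0.12, adjusted p = 0.0217). Pla2g4d, a cytosolic phospholipase A2 that releases fatty acids from membranes, read 4.35, 4.55, 4.73 and 4.17 against 5.01, 5.34, 5.45 and 5.15 (1.73-fold, adjusted p = 0.0231). Crabp2, which carries retinoic acid to its nuclear receptors, read 8.51, 8.51, 8.92 and 8.51 against 9.23, 9.19, 9.31 and 9.37 (1.58-fold, adjusted p = 0.0393). With vehicle the differences were -0.39 for Defb14, -0.48 for Pla2g4d and -0.57 for Crabp2, of which the last passed the test (adjusted p = 0.177, 0.126 and 0.0422). All 3 passed the test of the difference between treatments, at 1.10, 1.27 and 1.24 (adjusted p = 0.00722, 0.00572 and 0.00420).

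Among 21 antimicrobial and acute-phase proteins Defb14 was the one called, with 15 above 0 and a median of 0.15. S100a7a, a psoriasin relative, read 4.96 to 5.79 in wild-type and 5.90 to 6.80 in knockout IMQ ears (1.12 ± 0.26, adjusted p = 0.123). Defb4 read 7.07 to 7.92 against 8.15 to 8.45 (0.72 ± 0.25, adjusted p = 0.402). Stress keratins and small proline-rich proteins had 0 calls of 19, with 4 at an unadjusted p under 0.05. None was below 0, their median was 0.29, and Sprr2f (0.75) and Sprr2h (0.68) were the largest (adjusted p = 0.238 and 0.389). With vehicle the same list had a median of -1.05 and 6 members called lower. Probe sets of the Sprr2 and defensin families can share sequence, so members are not independent.

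Calls in the cytokine lists stand beside a share of 0.12% over all genes, and lists with 0 calls are near it. In the IL-17, IL-22 and IL-23 axis 1 of 23 was called, Ccl20, a share above that over all genes that rests on 1 gene. Il17f read 4.24 to 5.51 against 4.47 to 6.41 (0.80 ± 0.36, adjusted p = 0.579). Neutrophil chemoattractants had 0 calls of 10, with Cxcl5 at 1.07 ± 0.28 and Cxcl1 at -0.68 ± 0.33 (adjusted p = 0.201 and 0.620). Il1b read 7.87 to 9.32 against 8.24 to 9.37, an overlap of the groups (0.52 ± 0.73, adjusted p = 0.905). Among 18 IL-1 and IL-36 family genes 0 were called, at a median of 0.06. The IL-6, oncostatin M and IL-20 list had 0 of 19, with Osm at 0.71 ± 0.30 (adjusted p = 0.529), and the interferon-stimulated genes 0 of 40, with Slfn4 at 0.76 ± 0.49 (adjusted p = 0.736).

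The pathway that miR-146a is known to restrain had 0 calls, near the 0.12% called over all genes. Such a count does not show that its members were unchanged. In simulated data 10.4% of log2 changes of 0.5 were called. Irak1 read 5.89, 6.03, 5.71 and 6.18 in wild-type and 6.03, 6.12, 6.07 and 5.61 in knockout IMQ ears. The groups overlapped fully, and the 95% confidence interval of the difference ran from -0.29 to 0.30 on the log2 scale (0.01 ± 0.14, adjusted p = 0.996). The sign of this value turned under median centring and when any of 5 arrays was left out. Traf6 read 5.69, 5.53, 5.73 and 5.63 against 5.73, 5.76, 5.83 and 5.73, an interval from -0.10 to 0.33 (adjusted p = 0.825). Of 26 reported targets of the microRNA 0 were called, 18 lay below 0 and 8 above, and the median was -0.04; 1 of them had an unadjusted p under 0.05. Notch1, a receptor that guides epidermal differentiation, differed by -0.23 ± 0.10 and Brca1 by 0.21 ± 0.14 (adjusted p = 0.535 and 0.744). mRNA arrays do not show repression at the level of translation. Toll-like receptor and IL-1 receptor adaptors had 0 calls of 27, with Ticam1 at -0.36 and Tlr4 at -0.28 (adjusted p = 0.574 and 0.687). NF-kB subunits, inhibitors and feedback genes had 0 of 34 and a median of -0.06. In each of these 2 lists 1 gene had an unadjusted p under 0.05. Tnfaip3, which encodes the feedback inhibitor A20, differed by -0.33 ± 0.16 and the kinase Ikbkb by -0.27 ± 0.12 (adjusted p = 0.618 and 0.536).

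**Figure D2:**
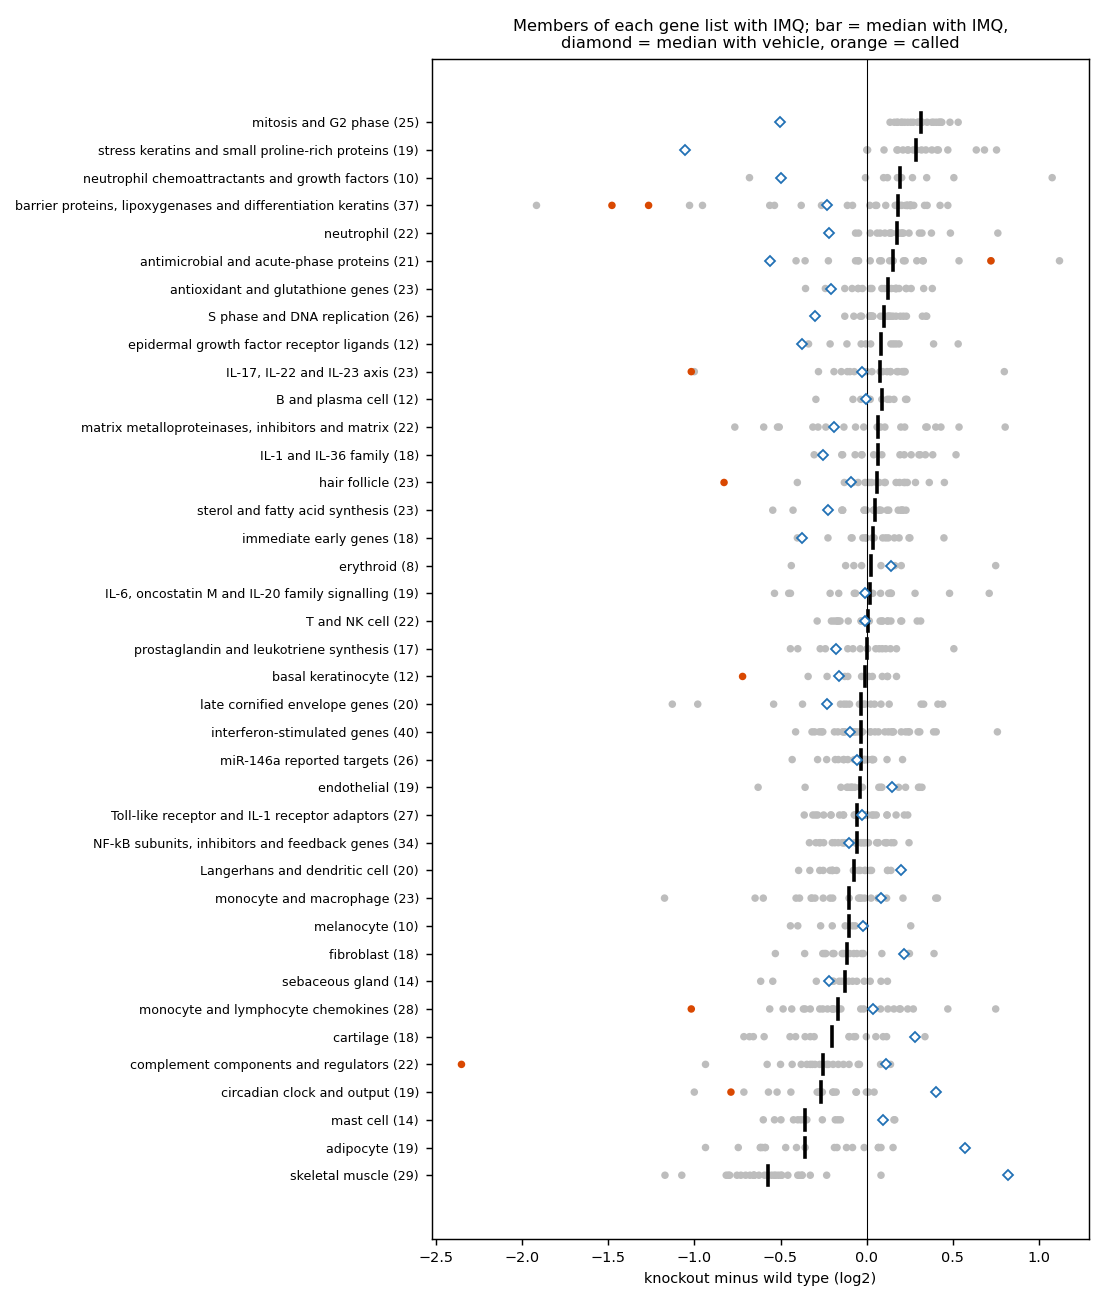
Knockout minus wild-type difference with IMQ (log2, x axis) of every measured member of 39 gene lists, with the number measured in brackets; orange points are called genes, the black bar is the list's median and the diamond its median with vehicle. Mitosis, stress keratin and neutrophil lists lie right of 0 with IMQ and left of it with vehicle, and the muscle and adipocyte lists the other way.

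Several called genes encode secreted or matrix proteins, a grouping made after the calls were seen. The list of metalloproteinases, inhibitors and matrix had 0 calls of 22 and a median of 0.065. Myoc, myocilin, a secreted glycoprotein of connective tissue, read 8.86, 9.05, 8.38 and 8.80 in wild-type and 7.38, 6.95, 7.40 and 6.87 in knockout IMQ ears. The lowest wild-type array was well above the highest knockout array, a 3.08-fold difference (-1.62 ± 0.18, adjusted p = 4.86e-04). Vehicle ears differed by 0.15 (adjusted p = 0.808) and the difference between treatments was -1.78 (adjusted p = 0.00458). Angptl7, a secreted relative of the angiopoietins, read 8.23 to 8.66 against 6.96 to 7.87, and the keratan sulphate proteoglycan Omd 5.99 to 6.62 against 4.90 to 5.47. Both were 2.06-fold lower (adjusted p = 0.0470 and 0.0393). Adamtsl3, a matrix protein, was 1.67-fold lower (adjusted p = 0.0148), the actin-severing Gsn 1.63-fold (adjusted p = 0.0442) and the focal adhesion protein Tns1 1.64-fold (adjusted p = 0.0470). Each of these 6 passed the test of the difference between treatments, and each had a positive difference with vehicle, from 0.15 to 0.52, that missed the threshold.

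The receptor genes Lgr6, Fgfr2 and Lrp4 were among the calls. Lgr6, an R-spondin receptor that marks stem cells of the follicle isthmus, was 1.77-fold lower (5.14 to 5.62 against 4.28 to 4.80, adjusted p = 0.0470). Its relative Lgr5 differed by -0.40 ± 0.20 near the array medians (adjusted p = 0.619). Fgfr2, the receptor through which keratinocytes respond to fibroblast-derived FGFs, was 1.65-fold lower (7.69 to 8.04 against 6.99 to 7.32, adjusted p = 0.0180). Lrp4, a co-receptor that modulates Wnt and BMP signals, was 1.54-fold lower (7.06 to 7.16 against 6.35 to 6.60, adjusted p = 0.0192). IMQ lowered Fgfr2 by -0.60 and Lrp4 by -1.25 in wild-type and by -1.45 and -1.97 in knockout ears. For all 3 the test of the difference between treatments passed, at -1.05 for Lgr6, -0.84 for Fgfr2 and -0.72 for Lrp4.

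Gpx3, Txnip, Pink1, Wnk4 and Slc43a1 were also lower. Gpx3, the secreted glutathione peroxidase, read 5.41, 5.62, 5.52 and 5.87 in wild-type and 4.52, 4.49, 4.75 and 4.42 in knockout IMQ ears (2.08-fold lower, adjusted p = 0.0180). IMQ raised it in both genotypes, by 1.39 in wild-type and 0.74 in knockout ears. Txnip, an inhibitor of thioredoxin and of glucose uptake, was 1.8-fold lower (adjusted p = 0.0180) and Pink1, a kinase that marks damaged mitochondria, 1.52-fold lower with wild-type arrays between 6.50 and 6.53 (adjusted p = 0.0296). Wnk4, a kinase that regulates ion transporters, read 4.60, 4.61, 4.77 and 4.66 against 3.94, 3.65, 3.50 and 3.50 (2.02-fold lower, adjusted p = 0.0142). IMQ raised Wnk4 by 0.60 in wild type and lowered it by -0.96 in the knockout (adjusted p = 0.0381 and 2.76e-04). Slc43a1, a carrier of neutral amino acids, was 1.9-fold lower (adjusted p = 0.0452). In the antioxidant and glutathione list 0 of 23 were called and 16 lay above 0, at a median of 0.1225.

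Per1, the clock repressor that answers to glucocorticoids and to the CLOCK and BMAL1 pair, read 7.42, 7.20, 7.33 and 7.46 in wild-type and 6.31, 6.73, 7.01 and 6.21 in knockout IMQ ears. The knockout arrays were lower and more spread (1.73-fold, -0.79 ± 0.15, adjusted p = 0.0454). In vehicle ears Per1 was higher in the knockout by 0.72 (adjusted p = 0.0341), and the difference between treatments was -1.51 (adjusted p = 0.00420). Of 19 genes of the circadian clock and its output 17 lay below 0 with IMQ (median -0.26) and Per1 was the one called. With vehicle 5 were called higher and 1 lower, with a median of 0.40. Hlf, a clock-output factor, differed by -0.71 ± 0.16 with IMQ (adjusted p = 0.107). The hour of collection is not given in the sources used here, and its part in these values was not tested. The downstream promoter window of Per1, chr11:69099902-69100201, held no match to any motif searched. The upstream one, chr11:69098699-69098998 on the plus strand of GRCm38.p6, holds the E-box CACGTG, in capitals, at position -166 from the start. It is shown because this is the motif through which the clock is known to act on this gene.
Per1 promoter: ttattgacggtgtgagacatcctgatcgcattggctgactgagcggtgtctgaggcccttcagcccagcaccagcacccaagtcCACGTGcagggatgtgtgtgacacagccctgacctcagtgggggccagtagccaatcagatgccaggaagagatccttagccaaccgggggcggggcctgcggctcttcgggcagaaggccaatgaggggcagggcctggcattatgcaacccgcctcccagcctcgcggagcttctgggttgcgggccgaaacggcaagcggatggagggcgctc

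The genotype difference often had the opposite sign in vehicle ears. Of the 37 genes called with IMQ 25 had the opposite sign with vehicle, and 25 passed the test of the difference between treatments. That test contains the IMQ comparison by which the 37 were called. The share of them that passed, and each pass given above, is therefore not separate support for the calls. That test called 387 genes (1.25%), a count that ran from 149 to 824 when 1 array was left out, and 0 genes with the muscle and adipocyte levels as covariates. With vehicle 141 genes were called (0.456%), 33 higher and 108 lower in the knockout, and 2 with those covariates. The covariates come from the same arrays and differed in median between the genotypes, so these fits cannot separate tissue from genotype. Of these 141 the IMQ difference had the opposite sign for 119. The 108 lower genes had a median of -0.88 with vehicle and 0.23 with IMQ, where 90 were above 0. The 33 higher genes had 0.77 and -0.31, with 29 below 0. Over all genes the differences with vehicle and with IMQ correlated at r = -0.215, as a description across genes of separate arrays, which are not independent replicates. IMQ minus vehicle was called for 1126 genes in wild-type (3.64%) and 4634 in knockout ears (15%), comparisons that share the arrays used here. Of the 31 genes lower in the knockout with IMQ, 7 fell and 8 rose with IMQ in wild-type ears, and 19 fell in knockout ears.

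**Figure D3:**
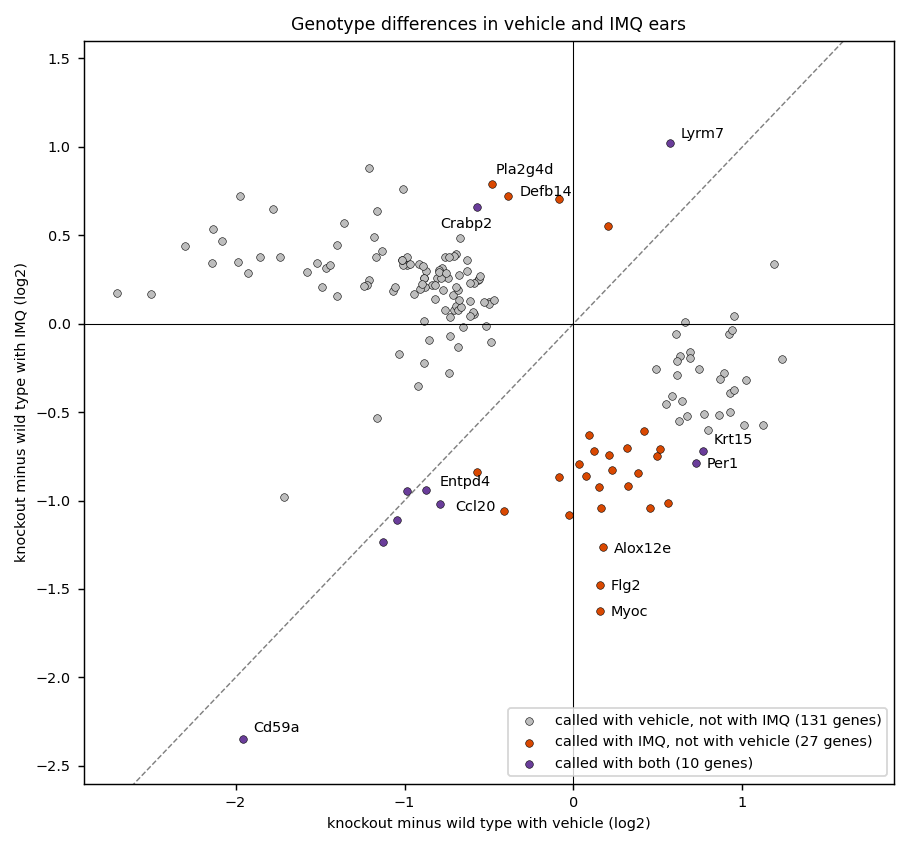
Knockout minus wild-type difference (log2) with vehicle (x axis) and with IMQ (y axis) of the genes called in either treatment; orange genes were called with IMQ, grey with vehicle and purple with both, and the dashed line marks equal differences. Cd59a, Entpd4, Ccl20 and Lyrm7 lie near that line, Myoc, Flg2 and Alox12e near 0 on the x axis, and Per1, Krt15 and Crabp2 in the quadrants of opposite sign.

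Markers of muscle, fat and cartilage, tissues beneath the epidermis, lay lower on most knockout IMQ arrays. Of 29 skeletal muscle genes 28 lay below 0 with IMQ, at a median of -0.57, and 0 were called by limma, with 16 at an unadjusted p under 0.05. Myh4, a fast myosin, differed by -1.17 ± 0.27 and the sarcomere protein Tcap by -1.07 ± 0.29 (adjusted p = 0.125 and 0.231). The summed list averaged 7.33, 8.10, 8.02 and 8.00 on the wild-type IMQ arrays and 7.32, 7.71, 6.89 and 7.21 on the knockout ones. Wild-type array 1 was as low as the knockout arrays, so the groups overlapped. With vehicle the median was 0.82. In bulk tissue fewer cells of a type and less RNA per cell cannot be told apart. Adipocyte genes had 15 of 19 below 0 (median -0.36, arrays 5.81 to 6.39 in wild type and 5.51 to 5.84 in the knockout). Cartilage genes had 14 of 18 below 0 (median -0.20), with Acan at -0.66 ± 0.14 and Chad at -0.71 ± 0.15 (adjusted p = 0.0977 and 0.0760). With the muscle and adipocyte levels as covariates 11 genes were called, and 8 of the 37 kept their call: Cd59a, Myoc, Alox12e, Flg2, Entpd4, Lyrm7, Gm10002 and LOC102642528. For the other 29 genes the part of these tissues was not tested beyond that fit. The fit cannot tell that part from genotype, since the levels come from the same arrays and lay lower on most knockout IMQ arrays.

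Mast cell genes lay below 0 in 12 of 14 cases (median -0.36), and their mean level did not overlap, at 3.87 to 4.05 in wild-type and 3.63 to 3.76 in knockout IMQ ears. The protease genes Tpsb2 and Cpa3 differed by -0.60 ± 0.21 and -0.54 ± 0.37 (adjusted p = 0.406 and 0.761), and 0 of the list were called, with 6 at an unadjusted p under 0.05. Monocyte and macrophage genes had 0 calls of 23 and a median of -0.10, with Lyz1 at -1.17 ± 0.26 (adjusted p = 0.111). Neutrophil genes had 19 of 22 above 0, 0 called and 2 at an unadjusted p under 0.05, with a median of 0.18 and Trem1 at 0.76 ± 0.33 (adjusted p = 0.539). T and NK cell genes (median 0.01), Langerhans and dendritic cell genes (-0.08), fibroblast genes (-0.12) and endothelial genes (-0.04) had 0 calls each. Of the basal keratinocyte list 1 of 12 was called, Krt15, and of the hair follicle list 1 of 23, Lgr6. Dim in all 4 groups were 6 of 14 mast cell, 7 of 22 neutrophil, 11 of 22 T and NK cell and 14 of 23 hair follicle genes. The medians and means of these lists rest partly on such genes.

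Lists of proliferation genes had 0 calls. All 25 mitosis and G2 phase genes lay above 0 with IMQ, at a median of 0.31, and 0 were called, with 9 at an unadjusted p under 0.05. Ccnb1, the mitotic cyclin, read 4.83, 4.44, 4.75 and 4.62 in wild-type and 5.20, 4.91, 5.20 and 5.07 in knockout IMQ ears (0.43 ± 0.12, adjusted p = 0.248), and the spindle protein Nusap1 differed by 0.53 ± 0.25 (adjusted p = 0.604). The mean of the list overlapped, at 5.38 to 5.83 against 5.66 to 6.07. S phase and DNA replication genes had 22 of 26 above 0 and a median of 0.10. In the matrix and metalloproteinase list the largest difference was that of Spp1, osteopontin, at 0.80 ± 0.41 (adjusted p = 0.632). Of 28 monocyte and lymphocyte chemokines 1 was called, Ccl20. Lists of epidermal growth factor receptor ligands, immediate early genes, prostaglandin synthesis, sterol synthesis, B cells, sebaceous glands, melanocytes and erythroid cells had 0 calls each, with medians from -0.125 to 0.0813. Of the B and plasma cell genes 10 of 12 were dim in all 4 groups, and of the erythroid genes 6 of 8.

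**Figure D4:**
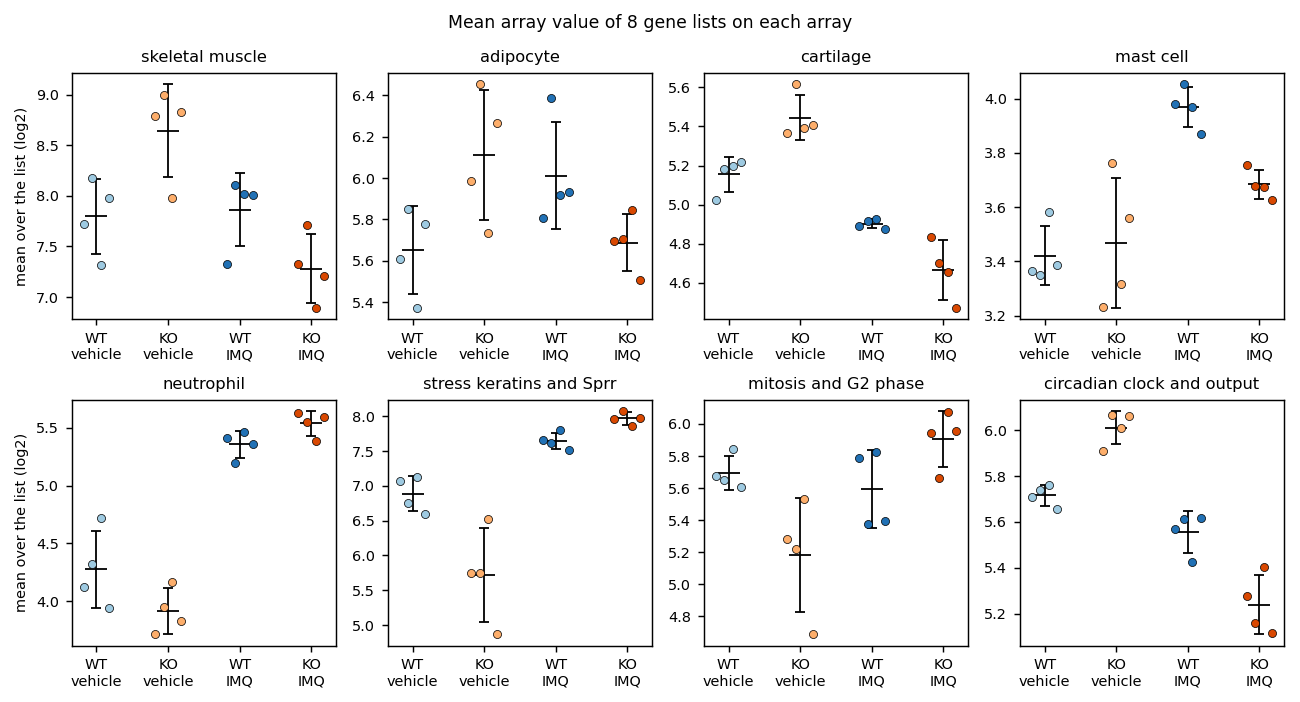
Mean array value (log2) of 8 gene lists on each array (points) in WT and KO ears with vehicle or IMQ, with mean and SD (n = 4); axes do not start at 0. Muscle, adipocyte, neutrophil and mitosis levels overlap between WT IMQ and KO IMQ arrays, while cartilage, mast cell, stress keratin and circadian levels do not.

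The remaining calls were transcripts of uncertain identity. Gm10325 differed by -0.84, Gm3893 by -0.80 and Gm10590 by -0.75 (adjusted p = 0.0177, 0.0470 and 0.0180), and the last 2 have 7 and 5 clusters, some of them identical. Gm23616 and Gm23633 were lower and E030046B03Rik higher, all dim in every group, so the sizes of their IMQ differences are not given. Rnf224 was higher by 0.70 ± 0.13 on the log2 scale (adjusted p = 0.0393), at least 1.63-fold because the wild-type arrays were dim. The 8874 clusters without a symbol, fitted with the same model, gave 0 calls.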

How the data were processed

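Ear RNA was measured on 16 Affymetrix Mouse Gene ST 2.1 arrays, 4 per genotype and treatment. The authors deposited 1 table of log2 values per transcript cluster, made with Affymetrix Expression Console per the labels, with array medians of 3.21 to 3.28. Its version, the summarisation and the build were not found in the labels or headers. No counts exist, so the number of arrays limits the precision. No scan or batch information was available in the labels or headers.

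One cluster was kept per symbol, that with the highest mean over 16 arrays. The 30943 genes were fitted with limma 3.58.1 in R 4.3.3 (4 group means, eBayes, 12 residual and 6.18 prior degrees of freedom), without a filter on low values. Genes with a Benjamini-Hochberg adjusted p under 0.05 were called. The procedure was tested on simulated data. Errors are SE from limma unless given as SD. All log2 differences are knockout minus wild type, or IMQ minus vehicle.

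Named genes were the 15 largest called changes each way whose arrays did not overlap, leaving predicted and clone symbols unranked, genes called in both treatments, up to 4 members per list by size, and Mir146, Irak1 and Traf6. Some list members are not reported here. Other called genes and family members were named after their values were seen. The members and lists were chosen with earlier results of these data known. The 27 alternatives covered filter, normalisation, variance model, array weights, cluster choice, replicate block, tissue covariates and left-out arrays. Sequences are from RefSeq (GRCm38.p6).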

Additional observations from a re-analysis of the deposited data

Results flagged for a closer look

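Single arrays stood apart from the other 3 of their group in 6 of 152 groups of named genes tested by Dixon's gap criterion, where chance gives about 1 in 20. In knockout IMQ ears these were array 3 for Flg2 (6.56), Il1b (8.24) and Sprr2h (6.69) and array 1 for Tpsb2 (3.88). In wild-type IMQ ears they were array 4 for Angptl7 (8.66) and array 3 for Crabp2 (8.92).

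The genotype difference with IMQ differed from that with vehicle, by limma's test of the difference itself, for 36 of the named genes. Many named genes were chosen by their IMQ difference, which this test contains. With the muscle and adipocyte levels as covariates no gene passed this test (0 called). Those levels come from the same arrays. Their own difference between treatments had a median of -1.48 for muscle and -0.87 for adipocyte genes. That fit therefore cannot tell the part of these tissues from that of genotype. The differences between treatments were -1.64 for Flg2, -1.44 for Alox12e, -0.94 for LOC102642528, -1.24 for Dapl1, -1.49 for Krt15 and -1.48 for Lce1m. They were -1.78 for Myoc, -1.49 for Angptl7, -1.21 for Omd, -0.96 for Adamtsl3, -1.02 for Gsn and -1.23 for Tns1. The receptor genes gave -1.05 for Lgr6, -0.84 for Fgfr2 and -0.72 for Lrp4. The values were -1.23 for Txnip, -1.02 for Pink1, -1.57 for Wnk4, -1.08 for Slc43a1, -1.51 for Per1 and -1.06 for Hlf. Muscle and cartilage genes gave -2.02 for Myh4, -2.28 for Tcap, -1.14 for Acan and -1.11 for Chad. The value was -1.89 for Lyz1, -1.24 for Gm10590 and -0.78 for Gm23633, which was dim in every group, so that its size is uncertain.

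The difference ran the other way for 8 genes, at 1.10 for Defb14, 2.69 for Defb4, 2.10 for S100a7a, 1.55 for Sprr2h, 1.27 for Pla2g4d, 1.24 for Crabp2, 0.79 for Rnf224 and 0.95 for Ccnb1.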

How the results depend on the processing

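Of the 37 IMQ calls 7 were kept in all 27 alternatives. The count was 85 with a trended robust variance (78 lower), 11 with only the compared groups fitted (1 higher, 10 lower) and 11 with muscle and adipocyte covariates (2 higher, 9 lower). It ran from 7 to 80 when 1 array was left out (1 to 11 higher, 6 to 69 lower). The vehicle count of 141 became 357 with a filter on low values, 343 with the trended variance, 237 with array weights, 15 with only the compared groups, 2 with the covariates, and 37 to 474 with 1 array left out. The difference count of 387 became 723 with the filter, 652 with the trended variance, 0 with the covariates and 149 to 824 with 1 array left out. The 7 genes called alike in both treatments became 3 with only the compared groups, 11 over all clusters, 1 with the covariates, 3 without knockout vehicle arrays 3 and 4, and 3 to 8 with 1 array left out. Median centring gave 6 higher and 39 lower. The replicate block gave 31 IMQ calls, keeping 25 of the 37, and 240 vehicle calls. Same-numbered IMQ arrays correlated at -0.083 to 0.022 after removing group means, none of them best with its own number. Same-numbered vehicle arrays correlated at 0.055 to 0.105, each best with its own number. The main fit did not take the numbers as pairs. A link by number among the vehicle arrays was not tested beyond the block fit. The sign turned for Irak1 (-0.0125 with median centring, -0.0758 to 0.1208 with 1 array left out), and, with the covariates, for Cpa3 (0.0721) and Il1b (-0.44). The causes were not tested.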
